A study of Mus musculus with 4 samples.

Results

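The genes described here encode membrane proteins with a MARVEL domain, a bundle of membrane-spanning helices shared by the MAL proteins and by occludin-type junction proteins. They are 8 genes of the 30142 measured by name, namely Mal, Mal2, Mall and Pllp of the MAL subfamily and Ocln, Marveld1, Marveld2 and Marveld3. Their gene IDs are 17153 for Mal, 105853 for Mal2, 228576 for Mall, 67801 for Pllp, 18260 for Ocln, 277010 for Marveld1, 218518 for Marveld2 and 73608 for Marveld3. Mal and Mall lie on chromosome 2, Ocln and Marveld2 on chromosome 13, Pllp and Marveld3 on chromosome 8, Mal2 on chromosome 15 and Marveld1 on chromosome 19. Each gene had 1 row on the array, so no choice between rows was needed. The set was selected on the shMCT-1 against NC differences of these same arrays, where Mall was among the genes with the lowest p, so the group differences of the 8 genes are given as descriptions without a test. The cells were 4T1, a mouse mammary carcinoma line used to study metastatic triple-negative breast cancer. The 2 shMCT-1 arrays came from cells labelled as carrying a short hairpin against MCT-1, grown as puromycin-selected clones, and the 2 NC arrays came from cells labelled as scramble control. The design text calls the replicates biological and independent, but whether the 2 arrays of a group share a clone, and whether NC cells were kept in puromycin, is not stated. Each SD therefore measures only how far 2 samples lay apart.

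MAL proteins are small, cholesterol-binding proteolipids of ordered membrane domains, known for carrying cargo to the apical surface of polarised epithelial cells and for their place in myelin. Occludin, tricellulin (Marveld2) and Marveld3 form the tight junction-associated MARVEL group, which sits with the claudins where neighbouring epithelial cells meet. In mammary epithelium the same membrane systems serve the lumen-facing surface and the seal between cells.

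Values are the deposited log2 summaries, and differences are shMCT-1 minus NC on that scale. The level of the targeted gene did not separate the groups. Mcts1, which encodes MCT-1, was at 7.81 and 7.89 on the shMCT-1 arrays and 7.86 and 8.05 on the NC arrays, a difference of -0.10 (adjusted p = 0.945, limma). The groups are therefore called by their labels, and a lower Mcts1 transcript in the arrays labelled shMCT-1 was not detected. Mcts2, a close relative of Mcts1, was at 6.61 and 6.96 on the shMCT-1 arrays and 5.81 and 6.61 on the NC arrays. Its difference was 0.57 (adjusted p = 0.896, limma), and 0.17 without NC replicate 1. Over the whole table limma called 0 of 65956 rows at an adjusted p under 0.05 (0.0%), while 3698 rows (5.61%) had an unadjusted p under 0.05. NC replicate 1 stood apart from the other 3 arrays, with 165 genes at least 1 log2 unit above or below every other array, against 54 for shMCT-1 replicate 2, 5 for shMCT-1 replicate 1 and 4 for NC replicate 2. The same array carried high interferon-stimulated genes, with a median excess of 2.70 over the mean of the other 3 arrays for 18 measured genes.

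The epithelial label of the cells was borne out by their markers. All 11 measured epithelial markers lay above the median row, as did 17939 of the 30142 named genes. The median over these markers was 12.56 and 12.52 on the shMCT-1 arrays and 12.92 and 12.76 on the NC arrays. Markers of T lymphocytes and of myelinating glia, the other cell types known for Mal, had medians below the median of all rows on each array. The array medians lay between 3.68 and 3.73. The T lymphocyte medians were 3.29 and 3.18 on the shMCT-1 arrays and 3.47 and 3.34 on the NC arrays, with Cd3e, a chain of the T cell receptor complex, at 2.99 and 2.80 against 2.92 and 2.80. The glial medians were 3.58 and 3.51 on the shMCT-1 arrays and 3.43 and 3.48 on the NC arrays. Among glial markers Pmp22, a tetraspan protein that is not confined to glia, had a difference of 1.88 (adjusted p = 0.882, limma). As bulk RNA was measured, fewer cells expressing a gene and less of its RNA per cell cannot be told apart.

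Among the 8 genes, Mall was the 1 with a higher mean in the arrays labelled shMCT-1, and the other 7 had lower means by at most 0.45. Mall alone was higher with groups that did not overlap, against 19.0% of all named genes that were higher in this way. Mal2, Ocln and Marveld2 were lower with groups that did not overlap, against 16.0% of all named genes. In either direction 4 of the 8 genes had groups that did not overlap, against 34.9% of all named genes. The median difference of the 8 genes was -0.084, and that of all named genes was 0.014. Because the set was chosen with this contrast known, nothing is read from these shares. All the genes except Pllp lay above the median row in mean signal, as did 17939 of the 30142 named genes.

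**Figure D1:**
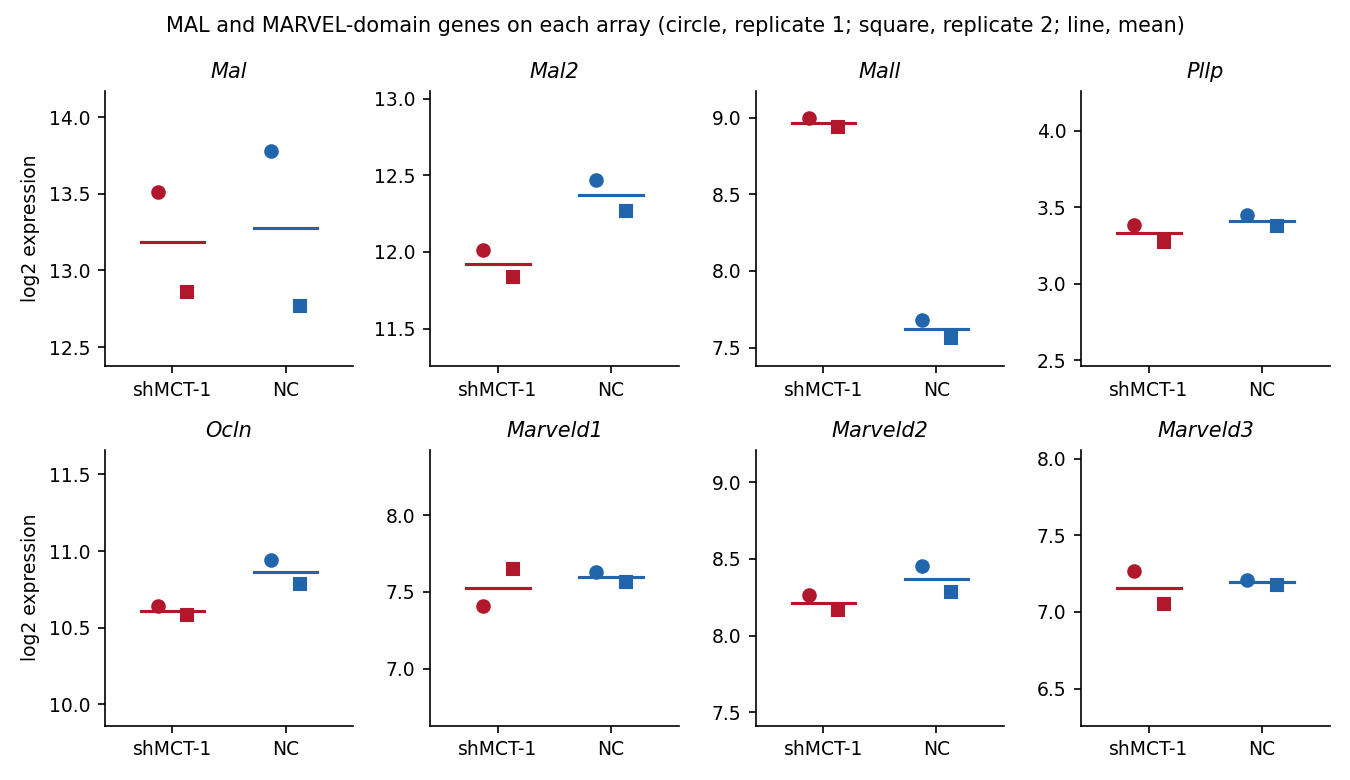
Log2 expression (y axis, a span of the same size in each panel) of the 8 genes on the arrays labelled shMCT-1 (red) and NC (blue), with circles for replicate 1, squares for replicate 2 and lines for group means. Mall is separated by group, with 8.99 and 8.94 in shMCT-1 and 7.68 and 7.56 in NC, while Mal is separated by replicate number.

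Mall encodes the MAL-like proteolipid, known as BENE in human cells, where it is found in ordered membrane domains. It was measured at 8.99 and 8.94 on the shMCT-1 arrays and at 7.68 and 7.56 on the NC arrays. Both shMCT-1 arrays lay above both NC arrays by at least 1.26, while the arrays of a group differed by 0.057 in shMCT-1 and 0.12 in NC. The difference was 1.35, a 2.54-fold higher level (SD 0.040 in shMCT-1 and 0.087 in NC, n = 2 each), and it was the 11th highest of the 30142 genes. Its pooled SD between replicates was at percentile 26.1 of all genes. With 1 array left out the difference stayed between 1.28 and 1.41, the lower value without NC replicate 2 and the higher without NC replicate 1. Genes at least 1 log2 unit higher with groups that did not overlap numbered 28, or 0.0929% of named genes, and Mall was 1 of them. Mall was among the genes with the lowest p in this same contrast when the set was chosen. Its rank, its spread and this share therefore follow from the choice, and nothing is read from them. 

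Mal, the founding member and a carrier of apical cargo in epithelial cells, gave one of the brighter rows of the table and varied mostly within the groups. It was at 13.51 and 12.86 on shMCT-1 replicates 1 and 2 and at 13.78 and 12.77 on NC replicates 1 and 2. The groups overlapped, with both replicate 1 arrays above both replicate 2 arrays. The difference of -0.088 was small beside the SD of 0.46 in shMCT-1 and 0.72 in NC (n = 2 each), and the pooled SD was at percentile 98.5 of all genes. Its sign turned with the array left out, being -0.41 when shMCT-1 replicate 1 was left out, 0.24 when shMCT-1 replicate 2 was, 0.42 when NC replicate 1 was and -0.60 when NC replicate 2 was. Mal was 1.01 higher on NC replicate 1, the array with the high interferon-stimulated genes, than on NC replicate 2, and the part of that array's state in the Mal value was not tested.

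Mal2 encodes a MAL protein that moves cargo from the basolateral to the apical surface, a role shown in human liver cells. It was at 12.01 and 11.83 on the shMCT-1 arrays and at 12.47 and 12.27 on the NC arrays. All shMCT-1 values lay below all NC values, with 0.25 between the nearest arrays against 0.18 between the shMCT-1 arrays and 0.20 between the NC arrays. The difference was -0.45, a 1.36-fold lower level (SD 0.13 in shMCT-1 and 0.14 in NC, n = 2 each), the 949th lowest of all genes. It stayed negative with 1 array left out, between -0.55 without NC replicate 2 and -0.34 without NC replicate 1. Mal2 and Mall, of the same subfamily, thus differed in opposite directions between the groups.

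Pllp encodes plasmolipin, a proteolipid of myelin and of apical membranes. It was at 3.39 and 3.28 on the shMCT-1 arrays and 3.45 and 3.38 on the NC arrays. These values overlapped between groups and lay below the median row (percentile 36.6 of all rows), where signal is weak and differences can be compressed. The difference was -0.081 (SD 0.078 in shMCT-1 and 0.049 in NC, n = 2 each).

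Ocln encodes occludin, the first membrane protein found at tight junctions. It was at 10.64 and 10.58 on the shMCT-1 arrays and at 10.94 and 10.78 on the NC arrays, with the groups 0.14 apart. The difference was -0.25, a 1.19-fold lower level (SD 0.044 in shMCT-1 and 0.11 in NC, n = 2 each), and between -0.33 and -0.17 with 1 array left out, the values without NC replicates 2 and 1. Marveld2 encodes tricellulin, which seals the points where 3 cells meet. It was at 8.26 and 8.17 on the shMCT-1 arrays and at 8.46 and 8.28 on the NC arrays. Here the nearest arrays of the groups were only 0.018 apart, less than the 0.096 between the shMCT-1 arrays. The difference of -0.15 was -0.066 without NC replicate 1 (SD 0.068 in shMCT-1 and 0.12 in NC, n = 2 each).

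Marveld3 and Marveld1 did not separate the groups. Marveld3, a tight junction protein known to restrain stress kinase signalling in cultured epithelial cells, was at 7.26 and 7.05 on the shMCT-1 arrays and at 7.21 and 7.18 on the NC arrays. Marveld1 was at 7.41 and 7.65 on the shMCT-1 arrays and at 7.63 and 7.56 on the NC arrays. Their differences were -0.036 and -0.069, and both turned positive when 1 shMCT-1 array was left out (0.071 for Marveld3 without replicate 2 and 0.049 for Marveld1 without replicate 1).

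**Figure D2:**
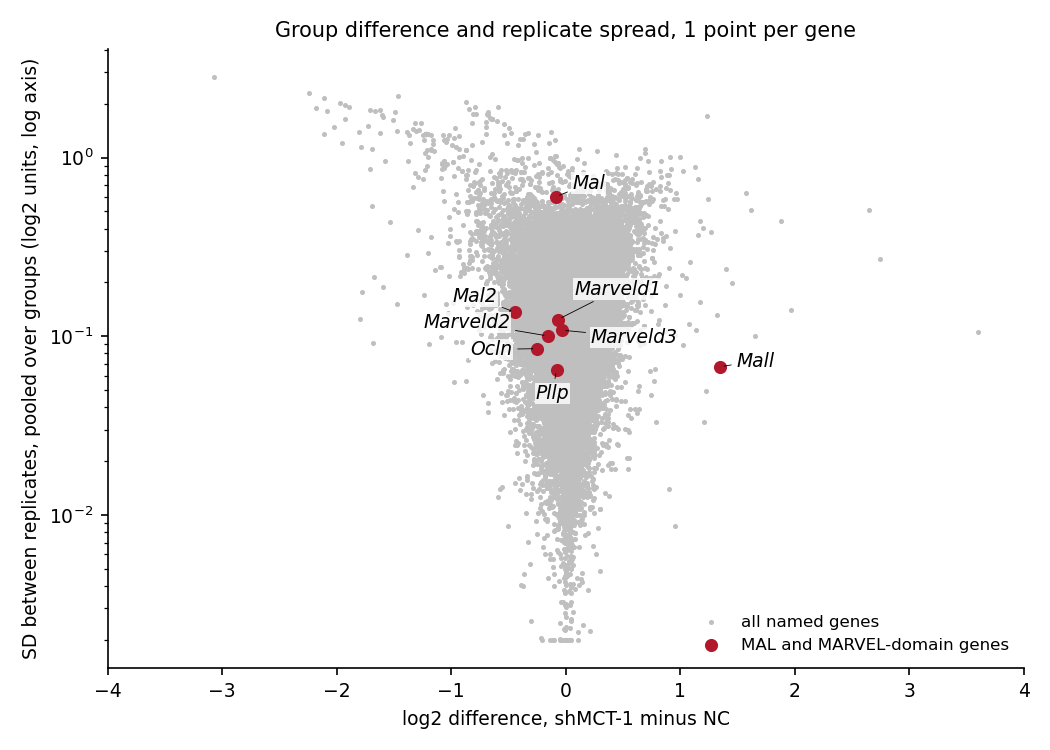
Log2 difference, shMCT-1 minus NC (x axis), against the SD between replicates pooled over the groups (y axis, log scale, SDs under 0.002 drawn at 0.002) for all 30142 named genes (grey) and the 8 MAL and MARVEL-domain genes (red). Mall lies at 1.35 with an SD of 0.067, and Mal lies near 0 with an SD of 0.60.

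**Figure D3:**
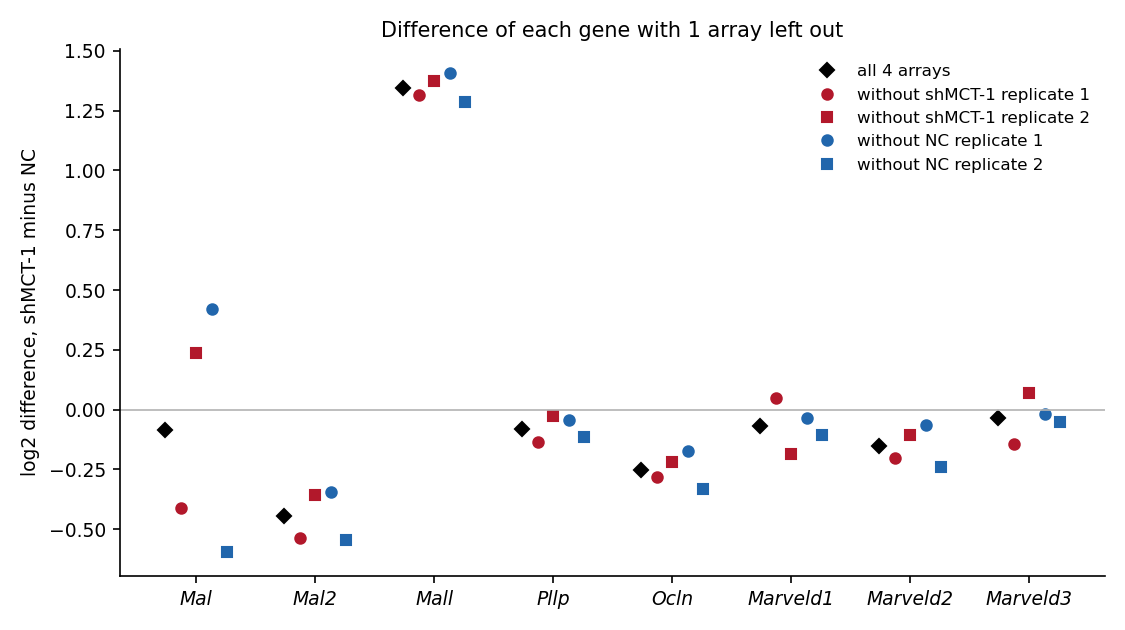
Log2 difference, shMCT-1 minus NC (y axis), of each of the 8 genes over all 4 arrays (black) and with 1 shMCT-1 array (red) or 1 NC array (blue) left out. Mall stays between 1.28 and 1.41, Mal2, Ocln, Marveld2 and Pllp stay below 0, and Mal, Marveld1 and Marveld3 take both signs.

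Within the NC group all 8 genes were higher on replicate 1 than on replicate 2, by 1.01 for Mal, 0.20 for Mal2, 0.18 for Marveld2, 0.16 for Ocln, 0.12 for Mall, 0.071 for Marveld1, 0.069 for Pllp and 0.032 for Marveld3. In the shMCT-1 group Marveld1 was 0.24 lower on replicate 1, and the other genes were higher there too. Gaps were 0.65 for Mal, 0.21 for Marveld3, 0.18 for Mal2, 0.11 for Pllp, 0.096 for Marveld2, 0.0625 for Ocln and 0.057 for Mall. The replicate 1 direction was thus not particular to the NC group. Medians over all named genes were also higher on replicate 1, at 4.17 against 4.15 in NC and 4.22 against 4.15 in shMCT-1. The share of all named genes higher on replicate 1 was not computed, so nothing is read from these counts. Without NC replicate 1 the median difference of the 8 genes was -0.040, with 2 genes higher (Mal and Mall) and 6 lower.

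The start regions of Mall, Mal, Ocln and Marveld2 are shown because these genes form adjacent pairs in the genome, Mal beside Mall and Ocln beside Marveld2. Each sequence holds the 250 bases before the annotated start in the RefSeq table (GRCm38.p6), 5′ to 3′ on the strand of the gene, with capitals on the E-box CANNTG. They lie at chr2:127729898-127730147 for Mall, chr2:127656696-127656945 for Mal, chr13:100552719-100552968 for Ocln and chr13:100616972-100617221 for Marveld2, all on the minus strand, and for Ocln and Marveld2 the first of 2 listed starts is shown.
Mall: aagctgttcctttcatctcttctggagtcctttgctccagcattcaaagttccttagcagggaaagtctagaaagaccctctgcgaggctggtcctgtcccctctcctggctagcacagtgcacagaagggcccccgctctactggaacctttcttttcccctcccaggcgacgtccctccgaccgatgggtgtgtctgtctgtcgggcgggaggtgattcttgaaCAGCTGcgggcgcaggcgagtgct
Mal: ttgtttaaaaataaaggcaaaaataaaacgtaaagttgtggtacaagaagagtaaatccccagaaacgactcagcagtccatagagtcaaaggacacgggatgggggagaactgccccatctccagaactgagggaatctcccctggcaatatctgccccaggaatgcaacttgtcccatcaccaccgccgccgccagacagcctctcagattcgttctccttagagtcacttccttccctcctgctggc
Ocln: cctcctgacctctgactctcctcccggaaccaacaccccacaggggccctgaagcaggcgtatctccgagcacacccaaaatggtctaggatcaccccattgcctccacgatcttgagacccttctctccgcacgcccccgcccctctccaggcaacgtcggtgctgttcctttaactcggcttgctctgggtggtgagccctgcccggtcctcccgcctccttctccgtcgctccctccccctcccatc
Marveld2: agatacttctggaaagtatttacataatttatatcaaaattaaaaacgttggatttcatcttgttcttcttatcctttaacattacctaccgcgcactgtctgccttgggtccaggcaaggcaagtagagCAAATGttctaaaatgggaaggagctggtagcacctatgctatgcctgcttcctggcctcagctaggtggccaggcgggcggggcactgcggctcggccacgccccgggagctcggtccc

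The paired start regions differed in composition. G and C made up 58.0% of the Mall region and 50.0% of the Mal region, with 11 and 7 CG dinucleotides, against medians of 52.4% and 6 over 32851 RefSeq start regions of the same length. The Ocln and Marveld2 regions had 64.0% and 50.4% G and C, with 14 and 10 CG dinucleotides. The Mall region held 1 E-box, CAGCTG at position -24 from the start, and the Marveld2 region held CAAATG at -120, whereas the Mal region and the Ocln region shown held none. An E-box occurred in 66.2% of all start regions. The GC box GGGCGG, searched on both strands, was found at -45 in Mall, at -44 in Marveld2 and as CCGCCC at -112 in Ocln, and not in the Mal region (32.7% of all regions held one). 

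The E-box CACCTG, a form of CANNTG bound by ZEB and SNAI repressors and read as CAGGTG on the other strand, was in none of the 4 regions shown. It was in the regions of Pllp, at -40, and of the second Ocln start, at -213 and -68, and in 17.2% of all regions. The motif TATAAA was found once, on the other strand at -223 in Marveld2 (12.4% of all regions). A Grainyhead-like motif AACCNGTT (1.79%), a sterol regulatory element TCACNCCAC (1.05%) and an AP-1 motif TGANTCA (6.75%) were not among the letters of the regions of Mal, Mall, Pllp, Ocln, Marveld1 and Marveld2, the 6 genes with an entry. These matches describe letters in a window only.

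The genes around Mall had smaller differences than Mall. Its neighbour Mal was at -0.088, as above. Of the other measured protein-coding genes among the nearest 3 on each side, Mrps5, of the mitochondrial ribosome, was 0.26 higher and Bub1, a spindle checkpoint kinase, was 0.12 higher, both with groups that did not overlap, and Mrps5 was at 0.15 without shMCT-1 replicate 2. Zfp661, Mtln and Acoxl were at -0.096, 0.064 and -0.019. Limma's adjusted p for these 5 genes was 0.894 or above. Around Ocln and Marveld2, Ccdc125 was at -0.34, with 7.61 and 7.85 on the shMCT-1 arrays and 8.04 and 8.10 on the NC arrays (adjusted p = 0.882, limma), and at -0.22 without shMCT-1 replicate 1. Rad17 and Cdk7 were at 0.036 and 0.072 and took both signs with 1 array left out. Naip2, Naip5 and Naip6 on the other side were between -0.11 and -0.014, and as close copies of each other their separate values are uncertain.

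**Figure D4:**
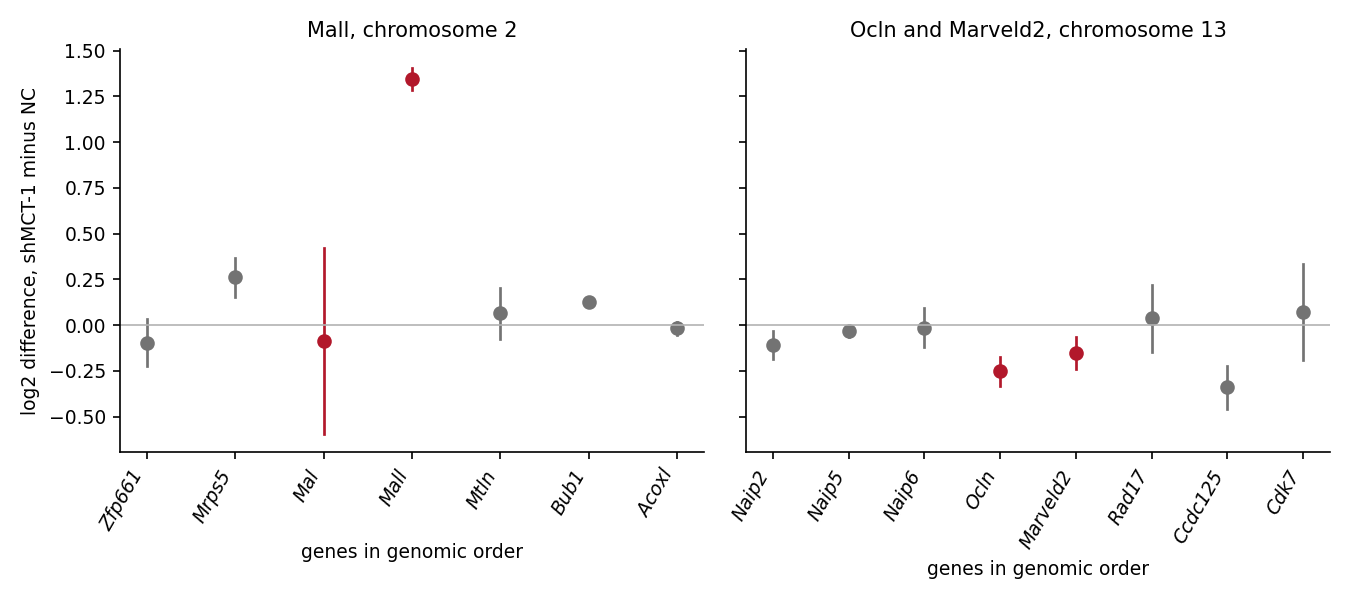
Log2 difference, shMCT-1 minus NC (y axis), of Mall (left) and of Ocln and Marveld2 (right) with the 3 nearest measured protein-coding genes on each side, in genomic order. Points are values over 4 arrays, lines span the values with 1 array left out, and MAL and MARVEL-domain genes are red. Mall at 1.35 stands above its neighbours, which lie between -0.096 and 0.26.

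The 5 genes whose pattern over the 4 arrays was most like that of Mall were Prelid2, Bspry, Cxcl2, Scd1 and Podnl1. The measure was the root mean square distance between values centred on each gene's mean, over 4 arrays. Prelid2 was at a distance of 0.049, with 5.41 and 5.26 on the shMCT-1 arrays and 4.12 and 3.91 on the NC arrays. Bspry followed at 0.064, with 5.96 and 5.90 against 4.75 and 4.67. Cxcl2, a neutrophil-attracting chemokine, was at 0.092, Scd1, the stearoyl-CoA desaturase, at 0.13 and Podnl1 at 0.13. These genes were picked as similar, so their differences of 1.20 to 1.45 follow from the choice.

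Other genes with a MARVEL-type fold showed small differences. Plp2 and the CMTM, synaptophysin, synaptogyrin and MYADM groups gave 18 measured genes. Of these, 10 had higher and 8 lower means, and 0 passed limma's adjusted threshold. With groups that did not overlap, 1 was higher and 4 were lower (19.0% and 16.0% over all named genes). The median was 0.0055. Cmtm3 and Cmtm4, chemokine-like factor genes with a MARVEL domain, were at -0.28 and -0.22, and Cmtm8 and Myadm at 0.17 and 0.16. Without NC replicate 1 Cmtm3 was at -0.18, Cmtm4 at -0.11 and Myadm at 0.021, and without shMCT-1 replicate 1 Cmtm8 was at 0.076. Cmtm3 was at 9.35 and 9.34 on the shMCT-1 arrays and at 9.73 and 9.53 on the NC arrays. Cmtm6, which stabilises PD-L1 in human tumour cells, was at -0.12, with 9.77 and 9.93 on the shMCT-1 arrays and 9.95 and 10.00 on the NC arrays (-0.042 without shMCT-1 replicate 1).

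Claudins, the strand-forming partners of occludin, differed in both directions. Of 21 measured claudins 13 had higher and 8 lower means, 7 were higher and 3 lower without overlap (19.0% and 16.0% over all named genes), the median was 0.063 and 0 passed (limma). These counts include dim rows. Cldn2, Cldn8 and Cldn19, counted as higher, had differences of 0.077, 0.094 and 0.081 at percentiles 9.55, 35.3 and 21.3 of all rows. Cldn14, counted as lower, was at -0.062 and percentile 26.7. Cldn3 was at 8.81 and 9.02 on the shMCT-1 arrays and at 5.30 and 5.33 on the NC arrays (difference 3.60, adjusted p = 0.106, limma), and Cldn7 was 1.66 higher (adjusted p = 0.669). Cldn1 was at 6.95 and 5.87 against 9.20 and 7.20, a difference of -1.79 that was -0.79 without NC replicate 1. The claudins with the largest differences in size, Cldn3 and Cldn1, thus differed in opposite directions.

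Scaffold and angulin genes of the tight junction were nearly balanced. Of 25 measured genes 11 had higher and 14 lower means, 4 were higher and 7 lower without overlap (19.0% and 16.0% over all named genes), the median was -0.026 and 0 passed (limma). Cgnl1, the paracingulin of the junction plaque, had the largest difference at -0.65, with 9.87 and 9.67 on the shMCT-1 arrays and 10.44 and 10.40 on the NC arrays (adjusted p = 0.882). Tjp1, the ZO-1 scaffold that binds occludin, was at -0.026, and the angulins Lsr and Ildr1, which recruit tricellulin, were at -0.012 and 0.031, and all 3 took both signs with 1 array left out. Itch, the ubiquitin ligase that acts on occludin, was 0.26 higher, with 9.89 and 9.91 on the shMCT-1 arrays and 9.67 and 9.61 on the NC arrays (adjusted p = 0.882). Tjap1 and Tjp3 were at 0.24 and 0.27, but Tjap1 was at 0.14 without shMCT-1 replicate 2 and Tjp3 at -0.12 without NC replicate 2.

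Raft, caveola and apical transport genes, the membrane systems in which MAL proteins work, differed in both directions, with Cavin2 the largest in size. Of 31 measured genes 11 had higher and 20 lower means, 4 were higher and 10 lower without overlap (over all named genes 19.0% and 16.0%), the median was -0.082 and 0 passed (limma). Without NC replicate 1 the median was -0.023. Cavin2, a caveola coat protein, was at 7.59 and 7.15 on the shMCT-1 arrays and at 5.19 and 4.26 on the NC arrays, a difference of 2.65 (adjusted p = 0.882). The other caveola genes had smaller differences in both directions. Cavin3 was at -0.57, Cav1, the main caveolin, at -0.34, Cavin1 at -0.11 and Cav2 at 0.16. Without NC replicate 1 Cavin3 was at -0.37 and Cavin1 at -0.019, and Cavin1 was at 0.012 without shMCT-1 replicate 2.

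Among genes tied to MAL proteins, Inf2, a formin that acts with MAL2 in human liver cells, was at 7.35 and 7.40 on the shMCT-1 arrays and 7.76 and 7.55 on the NC arrays, a difference of -0.28 that was -0.17 without NC replicate 1. Tpd52, a binding partner of MAL2, was at -0.082 and Cdc42 at -0.0010. Tpd52l1 and Tpd52l2, relatives of Tpd52, were at 0.25 and 0.22, with groups that overlapped. Flot2, a flotillin of ordered membrane domains, was at -0.37, and at -0.18 without shMCT-1 replicate 2. Flot1, the other flotillin, was at -0.16 with groups that overlapped, and at 0.23 without NC replicate 1. Stxbp2, a syntaxin-binding protein of apical secretion, was at -0.68, with 10.24 and 10.01 on the shMCT-1 arrays and 10.94 and 10.68 on the NC arrays. Rab25, an epithelial recycling GTPase, was at 0.24 with groups that did not overlap. Each of these had an adjusted p of 0.882 or above in limma.

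**Figure D5:**
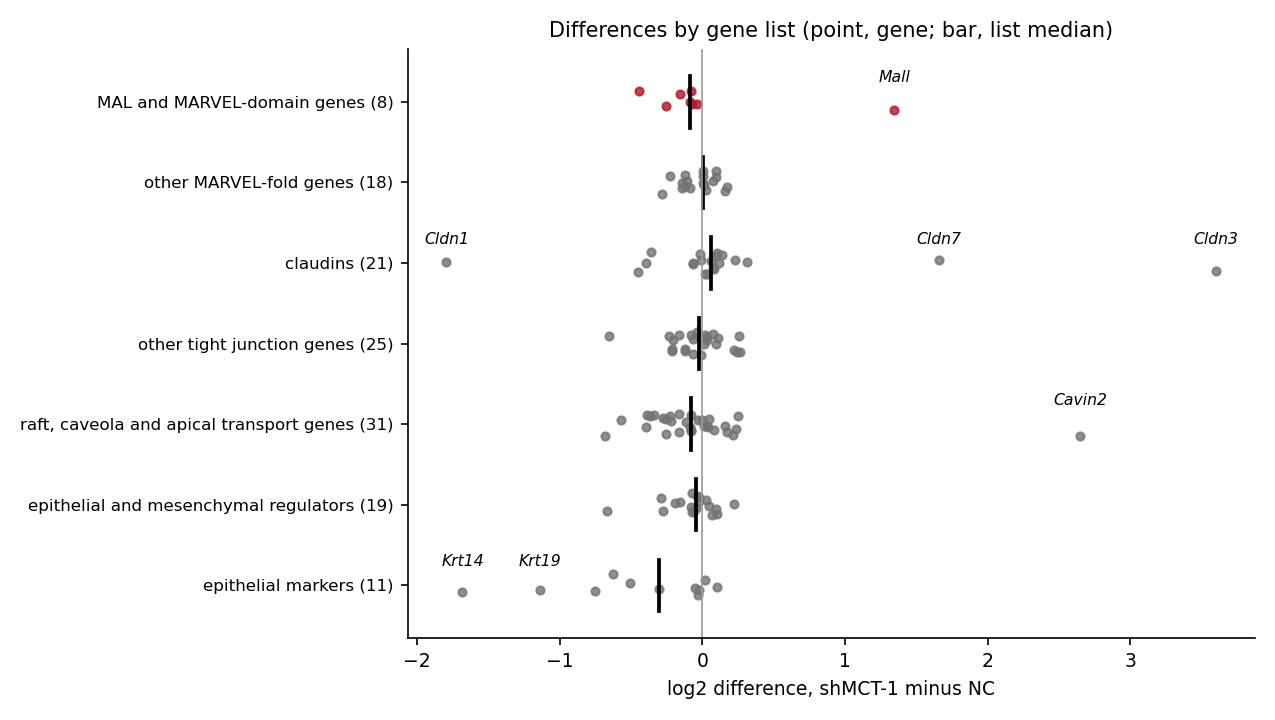
Log2 difference, shMCT-1 minus NC (x axis), of each gene (points) by gene list (rows, with the number of measured genes), with the list median as a bar and genes at 1 log2 unit or more named. Mall at 1.35 is apart from the other 7 MAL and MARVEL-domain genes, as Cldn3, Cldn7 and Cavin2 are apart from their lists. On the lower side Cldn1 is at -1.79, Krt14 at -1.68 and Krt19 at -1.14.

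Regulators of the epithelial and mesenchymal state had a median difference near 0. Of 19 measured regulators, 6 had higher and 13 lower means, 0 were higher and 6 lower without overlap (19.0% and 16.0% over all named genes), the median was -0.047 and 0 passed (limma). With NC replicate 1 left out, 8 means were higher and 11 lower. Ehf, an epithelial ETS factor, was at -0.67 and at -0.23 without NC replicate 1, and Esrp1, an epithelial splicing regulator, was at -0.29 and at -0.091 without that array. Snai2 and Zeb1, repressors of junction genes, were at -0.047 and -0.078, in rows near or below the median. Of 11 measured epithelial markers, 2 had higher and 9 lower means, with a median of -0.30 that was -0.17 without NC replicate 1, and 0 passed. Krt14 and Krt19, a basal and a luminal keratin, were at -1.68 and -1.14 (adjusted p = 0.669 and 0.882, limma). The other keratins of the list differed less. Krt17 was at -0.75, Krt5 at 0.10, Krt7 at -0.050, Krt8 at -0.028 and Krt18 at -0.022. Cdh1, the epithelial cadherin, was at 14.18 and 13.94 on the shMCT-1 arrays and at 14.52 and 14.20 on the NC arrays, a difference of -0.30 that was -0.14 without NC replicate 1. Epcam was at 0.020, and at 0.19 without that array. Jup and Dsp were at -0.62 and -0.51, and at -0.39 and -0.12 without that array.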

How the data were processed

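RNA of 4 cultures was hybridised to whole-transcript arrays. The authors deposited log2 expression values, gene-level summaries for which the submitters' processing notes name RMA and Affymetrix Expression Console. No version, option or build is given in the sources used here. Summarising compresses dim and very bright rows, so log2 differences there may understate a change. Of 65956 rows, 30604 had 1 gene symbol, 827 symbols were updated through gene ID (RefSeq, GRCm38.p6), and the brightest row stood for a gene. The fit used limma 3.58.1 (R 4.3.3) on all rows (lmFit, eBayes, two-sided, Benjamini-Hochberg, threshold 0.05), after the fit was tested on simulated data. The number of arrays limits the precision. The 8 genes and all lists were chosen with earlier results of these data known. Genes were named from among the 4 with the largest difference in each list, with 3 neighbours per side and 5 genes like Mall. Not all of these were named, and those left out include Cldn6 (-0.45), Pigr (-0.39), Klf5 (-0.28) and Ovol1 (0.22). Cd3e, Cmtm6, Tjp1, Lsr, Ildr1, Cav1, Cav2, Cavin1, Inf2, Tpd52, Cdc42, Flot2, Rab25, Snai2, Zeb1, Cdh1 and Epcam were added for their roles after values were seen. Krt5, Krt7, Krt8, Krt18, Dsp, Flot1, Tpd52l1, Tpd52l2, Cldn2, Cldn8, Cldn14 and Cldn19 were added to show other members of their lists. Alternatives were other variance priors, scalings, a filter on dim rows, a block, averaged rows and each array left out.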

Additional observations from a re-analysis of the deposited data

How the results depend on the processing

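Limma called 0 rows at an adjusted p under 0.05 in each of the 11 other settings tried, and the rows at an unadjusted p under 0.05 ranged from 1984 without NC replicate 1 to 7537 with the replicate number as a block, against 3698. The replicate numbers could not be shown to pair the cultures. The correlation of the replicate 1 deviations between the groups, over rows, was 0.419, and the block left 0 rows past the threshold. In this balanced layout a block cannot change a group difference, so the median of the 8 genes stays at -0.084 by construction. Mall was the 1 gene of the 8 that was higher in shMCT-1 in both numbered pairs at once. Marveld3 was higher between the replicate 1 arrays only, and Mal and Marveld1 between the replicate 2 arrays only. With 1 array left out, the count of the 8 genes that were higher with groups that did not overlap ranged from 1 to 2, against 1, since a lone array of a group overlaps less easily. Mall was counted each time, with Marveld1 added without shMCT-1 replicate 1, Marveld3 without shMCT-1 replicate 2 and Mal without NC replicate 1. The median difference ranged from -0.18 without NC replicate 2 to -0.040 without NC replicate 1. A further quantile normalisation gave -0.13 and median centring -0.11, and under both of these scalings Mall was higher (1.32 each) and the other 7 genes were lower. With 1 array left out Mal, Marveld1 and Marveld3 took both signs, while the other 5 genes kept theirs. The filter on dim rows and the average over a gene's rows cannot change the difference of a gene with 1 row. With 2 arrays per group, small differences such as those of Marveld1 and Marveld3 could not be resolved.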
